A study of Mus musculus with 4 samples.

Results

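The carbonic anhydrases are zinc enzymes that interconvert carbon dioxide and water with bicarbonate and a proton. In hepatocytes they provide bicarbonate for urea synthesis, gluconeogenesis and fatty acid synthesis and buffer the cell, and the isoforms differ mainly in where they sit: in the cytosol (Car1, Car2, Car3, Car13), in mitochondria (Car5a, Car5b) or at the cell surface (Car4, Car14). Car3, a cytosolic isoform of low hydratase activity, is abundant in liver, skeletal muscle and fat, and in rat liver it is under the control of growth hormone and higher in males. The genes described here are Car1, Car2, Car3, Car4, Car5a, Car8, Car13 and Car14. Of these 8 genes 5 had a probe named in the platform annotation, out of 16593 genes in all. Car1, a red cell and gut isoform, Car5a, the mitochondrial isoform of liver, and Car8, a family member without catalytic activity that binds the IP3 receptor, had no probe named for them, and 1719 of the array's 25697 probes are unnamed here, so these 3 genes were not analysed. Where a gene had several probes, its probe was chosen by the highest mean intensity over the 4 arrays, a measure that takes no account of genotype. The 8 genes were listed with earlier results of these arrays known, so the values and p-values below describe these arrays and are no independent support.

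The study measured RNA of whole liver from male C57BL/6 mice aged 4 weeks in 4 samples, each on its own Illumina array. In 2 TAK1 KO samples (genotype Alb-Cre/ TAK1 flox) Cre under the albumin promoter, which is active in hepatocytes, was combined with floxed TAK1. The 2 WT samples (genotype TAK1 flox) carried the floxed gene without Cre, so that Cre and the deletion differ together, and the mice of both groups were untreated. Whether each sample is a different animal is not stated, so the SEs and p-values measure only the spread between these samples, which may be technical. Values are the authors' normalized intensities in arbitrary units, log2 differences are TAK1 KO minus WT after background correction, and every adjusted p is limma's (Benjamini-Hochberg, all 16593 genes), with calls made under 0.05.

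A floor of 100 units, chosen after the values were seen, is used below for a readable signal, and 40.6% to 40.9% of the probes on an array exceeded it. The number of arrays limits the precision of every value, and with 2 arrays a group the smallest p of an exact permutation test is 0.333. Map3k7, which encodes the kinase TAK1, read 125.3 and 117.9 units in TAK1 KO and 155 and 138.4 units in WT liver, which did not pass (log2 difference -0.26 ± 0.10 SE, limma's adjusted p = 0.116). The part of the transcript that this probe reads is not known, so it is no check of genotype. Of 11 measured hepatocyte markers 10 lay above 100 units on at least 2 arrays. Fgb, a fibrinogen chain, did not. The Alb probe read only 214.4 and 190.5 units in TAK1 KO and 206.5 and 197.6 units in WT, far below Apoa1, Ttr and Trf. How well it reads albumin RNA is not known.

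Car3 was the carbonic anhydrase that differed most between the groups. It read 2034.7 and 2625.9 units in TAK1 KO liver and 9665.3 and 8641.1 units in WT liver. Both TAK1 KO arrays lay far below both WT arrays: the lower WT array stood 3.29 times above the higher TAK1 KO array, while arrays of 1 group differed by 1.29 times in TAK1 KO and 1.12 times in WT. Car3 was 3.95-fold lower in TAK1 KO (95% interval 3.21 to 4.85; log2 difference -1.98 ± 0.13 SE, n = 2 per group, adjusted p = 2.23e-05). Of all genes tested 26 had a larger fall on the log2 scale. The array holds 1 named Car3 probe, so no other probe checks this value, and the call held under all 12 alternative settings, with log2 differences from -2.16 to -1.80.

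Car13, another cytosolic isoform, moved in the opposite direction at a low signal. It read 84.9 and 112.7 units in TAK1 KO liver and 62.4 and 57.8 units in WT liver. The groups did not overlap, but only 1 of the 4 arrays, a TAK1 KO array, lay above 100 units. The log2 difference was 0.66 ± 0.13 (SE, n = 2 per group) with an adjusted p of 0.00728. No fold is given, because the TAK1 KO mean did not exceed the floor against which a dim WT signal has to be set. The size of the log2 difference depends on the background correction, reaching 1.15 with an offset of 16. The call was lost without WT replicate 1 (adjusted p = 0.051) and without WT replicate 2 (adjusted p = 0.0873), and Car13 does not enter the fit limited to genes above 100 units on at least 2 arrays.

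Car14, a membrane-bound isoform with its active site outside the cell, was read well above the floor on all arrays. It read 661.5 and 720.7 units in TAK1 KO liver and 710.9 and 880.2 units in WT liver. The groups overlapped, since the higher TAK1 KO array lay above the lower WT array. The log2 difference of -0.20 ± 0.12 (SE, n = 2 per group) did not pass (adjusted p = 0.357), and its 95% interval spans TAK1 KO over WT ratios from 0.725 to 1.05.

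Car2, the cytosolic isoform of high activity found in red cells, bile duct epithelium and osteoclasts, read 209.1 and 192.6 units in TAK1 KO liver and 213.5 and 151.2 units in WT liver. Both TAK1 KO arrays lay between the WT arrays, which differed from each other by 1.41 times. The log2 difference was 0.16 ± 0.15 (SE, n = 2 per group; adjusted p = 0.61), and the 95% interval spans ratios from 0.881 to 1.41, so that a fall of the size seen for Car3 lies outside it. The second Car2 probe lay below 100 units on every array, at 60.7 and 66 units in TAK1 KO and 56.4 units on both WT arrays.

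Car4, anchored at the cell surface and known from capillary endothelium, stayed below 100 units on all arrays. It read 55.5 and 60.1 units in TAK1 KO liver and 59.2 and 60 units in WT liver. No difference was detectable at this signal (log2 difference -0.04 ± 0.09 SE, n = 2 per group, adjusted p = 0.849).

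**Figure D1:**
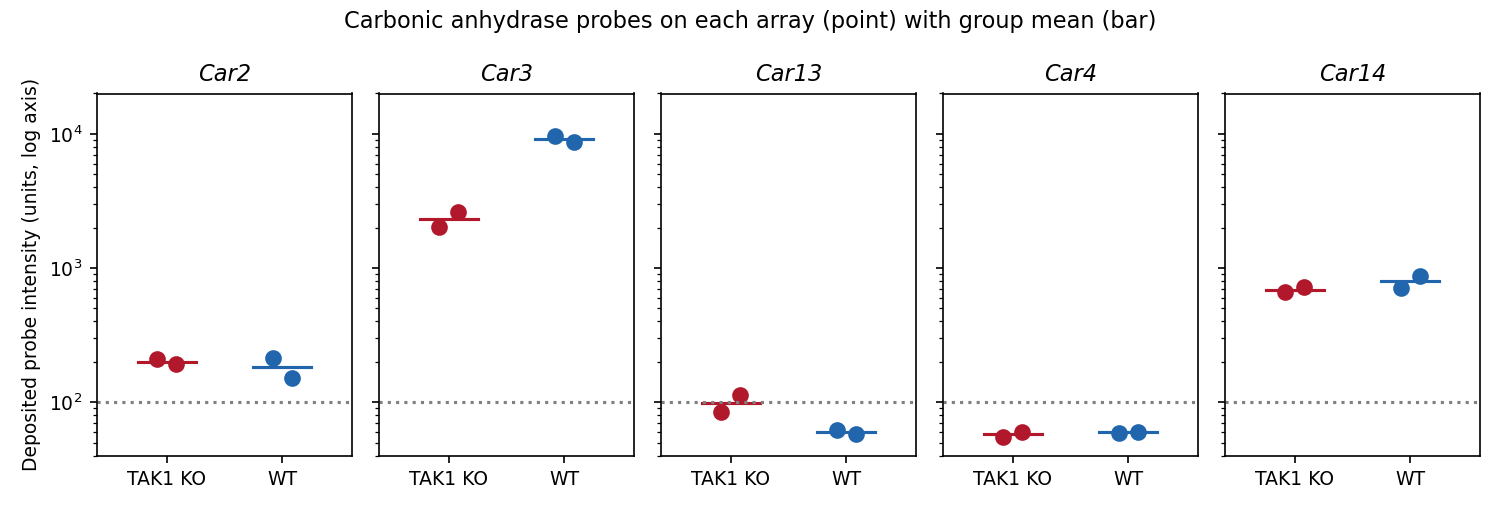
Deposited intensity (units, log axis) of the 5 measured carbonic anhydrases on each array, TAK1 KO left of WT; points are arrays, bars are group means and the dotted line marks 100 units. Car3 separates widely, at 2034.7 and 2625.9 units in TAK1 KO and 9665.3 and 8641.1 units in WT, whereas the Car2 and Car14 groups overlap and Car4 lies below the line throughout.

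Of the 5 measured genes 2 were called, 1 lower and 1 higher in TAK1 KO. Over all genes 18.2% were called, 7.71% lower and 10.5% higher, and among genes above 100 units on at least 2 arrays 36.7% were called. Of the 5 genes 3 met that limit, of which Car3 was called and Car2 and Car14 were not. The groups lay apart in 2 of the 5 genes, against 53.7% of all genes. The median log2 difference of the 5 genes was -0.04, against -0.0036 for all genes, and with so few genes nothing about the family as a whole can be read from these shares.

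Among the other mouse family members, 7 of 8 had a named probe and 0 were called by limma. By limma's unadjusted p, 0 of these genes lay under 0.05 too, and the lowest adjusted p, 0.197, was that of Car9. These 7 were the mitochondrial Car5b, the secreted salivary isoform Car6, the cytosolic Car7, the transmembrane Car9 and Car12, the catalytically inactive Car11, and Car15. All but Car7 lay below 100 units on every array, between 53.5 and 93.2 units, so neither a level nor a difference can be read for them. Car7 read 95 and 90.8 units in TAK1 KO liver and 103.7 and 107.1 units in WT liver, close to the floor in both groups (log2 difference -0.18 ± 0.09 SE, n = 2 per group, adjusted p = 0.264). Car9, a target of the hypoxia factor HIF-1, read 92 and 88.2 units in TAK1 KO and 76.2 and 79.5 units in WT on its brightest probe, and its other probes gave log2 differences of 0.08 and -0.01. Over the family, 17 probes read 12 genes, and the only probes called were those of Car3 and Car13.

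**Figure D2:**
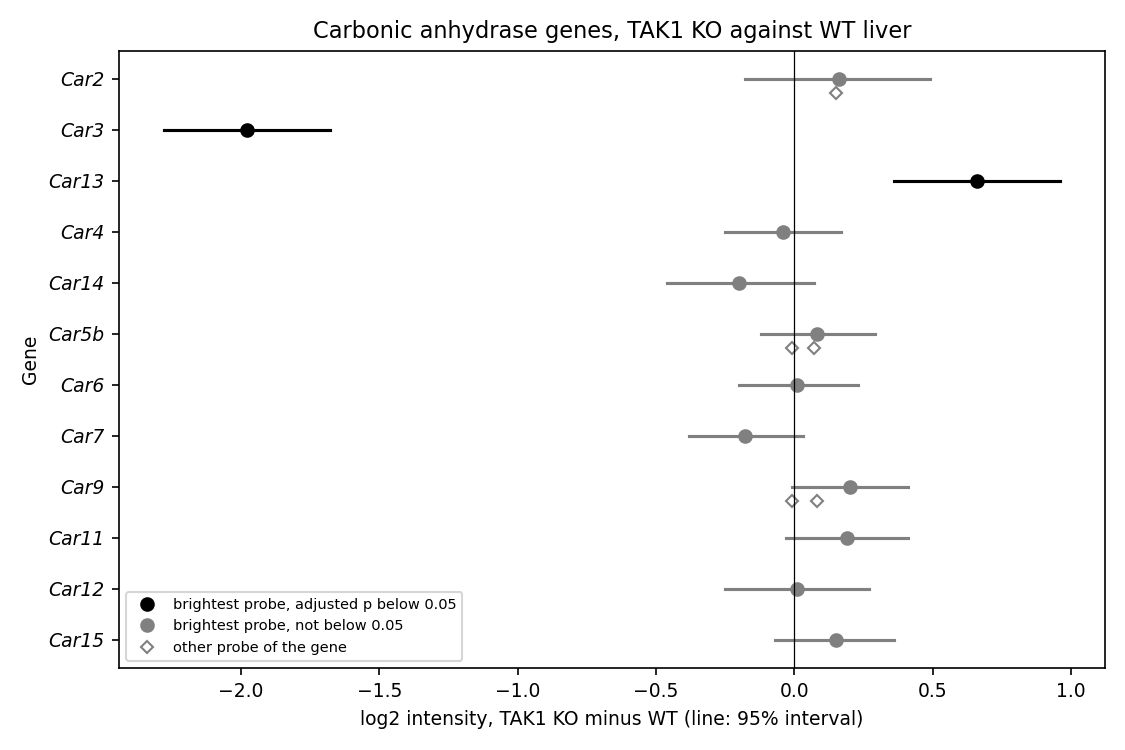
Log2 difference, TAK1 KO minus WT, of 12 carbonic anhydrase genes; circles are the brightest probe of each gene with its 95% interval, black where limma's adjusted p was below 0.05, and open diamonds are other probes of the gene. Car3 stands at -1.98 and Car13 at 0.66, and the intervals of the other genes include 0.

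Car13, Car1, Car3 and Car2 lie next to each other in this order on mouse chromosome 3, with no other protein-coding gene between them in the GRCm38.p6 RefSeq table. Car14 is also on chromosome 3 but outside this cluster, and Car4, Car5a and Car8 are on chromosomes 11, 8 and 4. Of the 3 measured genes of the cluster, Car3 was called lower, Car13 higher and Car2 not called. Car13 and Car2 were not tested against each other, their 95% intervals overlap (0.36 to 0.96 and -0.18 to 0.49), and neither was called when either WT array was left out. To set them beside their surroundings, the 5 nearest measured genes on each side were read, a choice made after the values of the cluster were seen. On the Car13 side (Snx16, Ralyl, Slc7a12, Lrrcc1 and E2f5) none of the 5 was called, but Ralyl, Slc7a12 and Lrrcc1 lay below 100 units on every array. On the Car2 side 3 of 5 were called, and Mtfr1 lay below 100 units on every array. Over all genes 18.2% were called, and 36.7% of those above 100 units on at least 2 arrays. With so few readable genes the sides cannot be set against each other. Cyp7b1, the oxysterol hydroxylase of bile acid synthesis, read 187.8 and 177.3 units in TAK1 KO and 657.3 and 609.9 units in WT, a 3.41-fold lower level (log2 difference -1.77 ± 0.09 SE, adjusted p = 7.99e-06). The RNA-binding protein gene Ythdf3 was 1.59-fold lower (adjusted p = 0.00129), but not called when its probes were averaged (log2 difference -0.22). Sirpb1a, a receptor gene of myeloid cells, was at least 1.19-fold higher (log2 difference 0.64, adjusted p = 0.004), a call lost without WT replicate 2. It read 113.6 and 127.5 units in TAK1 KO and 82.5 and 69.5 units in WT, near the floor. With its probes averaged the log2 difference was 0.45.

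**Figure D3:**
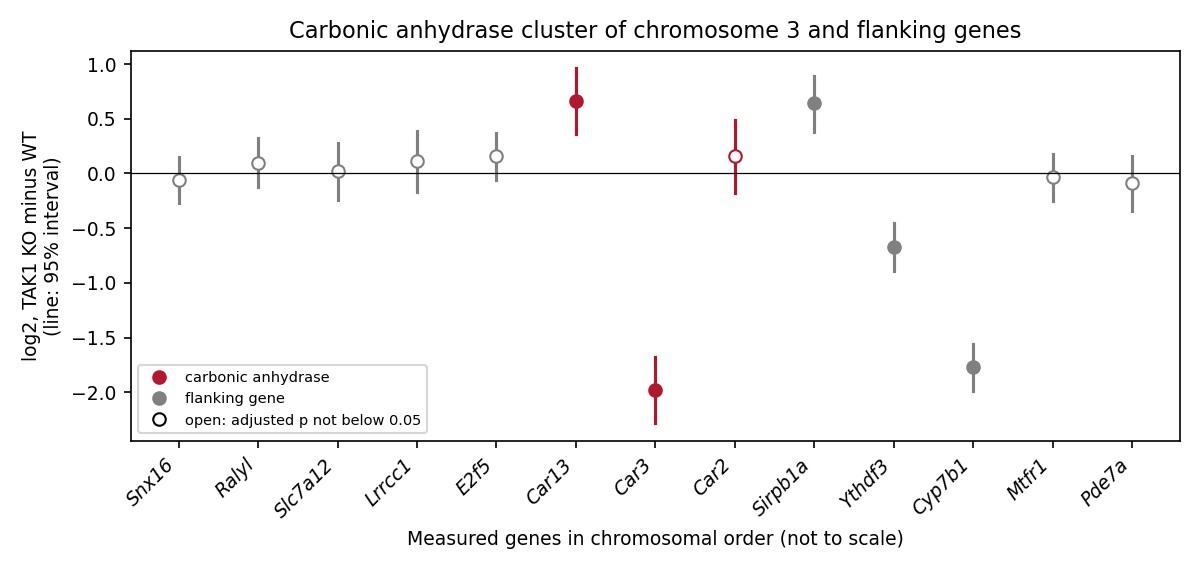
Log2 difference, TAK1 KO minus WT, with 95% interval, of the measured genes of the carbonic anhydrase cluster (red) and the 5 measured genes on each side (grey) in chromosomal order, not to scale; open circles did not pass. Car3, at -1.98, lies between Car13, at 0.66, and Car2, at 0.16, and Cyp7b1 stands at -1.77.

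The genes whose values over the 4 arrays were most like those of Car3 were Pigr, Ugt3a2, Cyp2a5, Ppm1k and Cd163, by Euclidean distance between log2 values centred on each gene's mean, among genes averaging above 100 units. Pigr, the receptor that carries immunoglobulin A across epithelia, was nearest (distance 0.20), at 419 and 644.7 units in TAK1 KO and 2357.1 and 1942.9 units in WT. Ugt3a2, a glycosyltransferase, followed (0.23), and was 4.19-fold lower in TAK1 KO. Cyp2a5, a perivenous cytochrome P450, came next at 0.27 and was 3.66-fold lower. The mitochondrial phosphatase gene Ppm1k and the macrophage haemoglobin receptor gene Cd163 lay at 0.31 and 0.34. Cd163 read 117.4 and 111.2 units in TAK1 KO and 528.2 and 409.1 units in WT on its brightest probe, and was 3.95-fold lower there but 2.15-fold lower with its probes averaged, so its likeness to Car3 rests on 1 probe. With 4 arrays in 2 groups this likeness mostly reflects a similar size of difference between the groups.

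Of 7 measured enzymes that use bicarbonate as a substrate 2 fell and 1 rose (median log2 difference -0.31), a share called near the 36.7% of genes above 100 units. The number that fell was 4 without TAK1 KO replicate 1 or with probes averaged, and 1 without WT replicate 2 or with a background offset of 16. Pcca, a subunit of the mitochondrial propionyl-CoA carboxylase, read 539.8 and 478.2 units in TAK1 KO and 817.9 and 818.6 units in WT, and was 1.61-fold lower (adjusted p = 0.00134). Mccc1, a subunit of methylcrotonyl-CoA carboxylase, was 1.36-fold lower (adjusted p = 0.0238), a call lost without WT replicate 2 and with a background offset of 16. Cad, which starts pyrimidine synthesis, was at least 1.11-fold higher (adjusted p = 0.017), a call also lost without WT replicate 2. Cps1, the carbamoyl phosphate synthetase of the urea cycle, read 15364.3 and 13298.2 units in TAK1 KO and 13769.5 and 13702.5 units in WT, with overlapping groups and a log2 difference of 0.06. Pyruvate carboxylase (Pcx) and acetyl-CoA carboxylase (Acaca) did not pass, with log2 differences of -0.32 and -0.21.

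Of 13 measured bicarbonate and anion transporters 1 rose and 1 fell, and 7 lay below 100 units on every array. The share called was 18.2% over all genes and 36.7% among genes above 100 units on at least 2 arrays. Slc4a1, the anion exchanger of red cells, read 159.6 and 145.4 units in TAK1 KO and 123.1 and 95.4 units in WT (log2 difference 0.47, adjusted p = 0.0309, lost without WT replicate 2 and with a background offset of 16). Slc26a4 was at least 1.13-fold lower (adjusted p = 0.00483). Its signal was near the floor, at 81.9 and 72.2 units in TAK1 KO and 113.7 and 112.7 units in WT. Slc4a2, the anion exchanger of hepatocytes and bile ducts, did not pass, at 477.7 and 528.8 units in TAK1 KO and 461.8 and 477.8 units in WT. Of 5 measured proton and monocarboxylate transporters only the proton channel gene Hvcn1 was called, at 94 and 101.4 units in TAK1 KO and 63.5 and 70.7 units in WT (adjusted p = 0.006), too dim for a fold and lost without WT replicate 1.

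Hepatocyte genes known for their position in the lobule or for control by growth hormone were set beside Car3. The position of Car3 in the lobule was not measured here. Of 12 perivenous genes, those of hepatocytes near the central vein, 6 fell and 0 rose (median log2 difference -0.47). After Cyp2a5, glutamine synthetase (Glul) was 3.09-fold lower at 433.6 and 329 units in TAK1 KO and 1021.1 and 1358 units in WT, and Cyp2e1 was 2.42-fold lower. The glutamate transporter Slc1a2 was 2.93-fold lower, with WT arrays that lay far apart at 920.8 and 2443.3 units. It was 4.76-fold lower without WT replicate 1 and 1.8-fold lower without WT replicate 2. Of 7 periportal genes 2 fell, Hal (2.79-fold) and Cyp2f2 (1.83-fold), and Cdh1, E-cadherin, rose, with a log2 difference of 1.56. Alb, also on this list, was not called, but how well its probe reads albumin RNA is not known. Of 9 measured male-biased genes under growth hormone control 5 fell and 1 rose (median -0.85), and Elovl3 and Slco1a1 lay below 100 units on every array. Their control by growth hormone in these mice, aged 4 weeks, was not tested. Besides Cyp7b1, the steroid dehydrogenase Hsd3b5 was at least 2.06-fold lower, with WT arrays far apart at 320.8 and 138.5 units. Its log2 difference of -1.62 was -1.03 without WT replicate 1, -2.22 without WT replicate 2 and -2.30 with a background offset of 16. Cyp4a12a was 2.16-fold lower, at 99.1 and 121.1 units in TAK1 KO and 330.6 and 177.2 units in WT. Its log2 difference of -1.11 was -0.67 without WT replicate 1 and -1.56 without WT replicate 2. Cyp4a12a has a near-identical copy, Cyp4a12b, so its probe may read both. The probe named for Cyp4a12b was not called (log2 difference 0.01). It lay near 100 units, at 96 and 102.3 units in TAK1 KO and 118.7 and 81.2 units in WT. Cyp2d9, also male-biased, went the other way, at 5386.3 and 5081 units in TAK1 KO and 1997.2 and 1842.7 units in WT. The calls of Slc1a2, Hsd3b5 and Cyp4a12a were lost with a robust prior that follows intensity, under which 2 male-biased genes fell. These counts are to be read against the 36.7% of genes above 100 units that were called.

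Car3 is also abundant in muscle and fat, and markers of these tissues were near the floor. Of 11 skeletal muscle markers 10 lay below 100 units on every array, among them Ckm, Acta1 and Myh4. By limma 0 of the 11 were called, and only Actn3 had an unadjusted p under 0.05. The summed muscle signal was 729 to 745 units in TAK1 KO and 754 to 767 units in WT. Of 8 measured fat cell markers 6 lay below 100 units on every array, including Adipoq, Fabp4 and Plin1, and the sum was 518 to 571 units in TAK1 KO and 540 to 544 units in WT. Of these 8, Cidec was called higher and Lipe lower, and each call was lost when either WT array was left out. Counts called among the muscle and fat markers are to be read against 18.2% of all genes, and 36.7% of those above 100 units on at least 2 arrays. The part of muscle and fat cells in the Car3 values was not tested.

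Red cells carry Car2 and Car1. Of 12 measured red cell and precursor markers 2 rose and 2 fell (median log2 difference 0.01), and 4 lay below 100 units on every array (Epb42, Ank1, Gata1 and Rhd). The sum was 20019 to 20304 units in TAK1 KO and 19173 to 24652 units in WT, most of it haemoglobin, and the groups overlapped. Alas2, the first enzyme of red cell haem synthesis, was 2.29-fold lower and the transcription factor Klf1 at least 1.63-fold lower. The transferrin receptor Tfrc, which other cells also express, had a log2 difference of 1.25. The other marker that rose was Slc4a1, given above with the transporters (log2 difference 0.47). Of 6 measured bile duct markers 1, Sox9, was called higher (lost without WT replicate 1). Sox9 read 104.4 and 95 units in TAK1 KO and 67.3 and 74.2 units in WT, too dim for a fold. The bile duct sums were 552 to 623 units in TAK1 KO and 496 to 510 units in WT, and Krt19 and Cftr lay below 100 units throughout. Of 13 endothelial markers, set beside Car4, 2 rose and 1 fell, and Kdr alone lay below 100 units throughout. The endothelial sums were 9677 to 9904 units in TAK1 KO and 8827 to 8888 units in WT. Counts called in these lists are to be read against 18.2% of all genes, and 36.7% of those above 100 units on at least 2 arrays.

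Markers of other liver cells rose in the same samples in which Car3 fell. Of 10 measured macrophage markers 7 rose and 0 fell, against 10.5% of all genes called higher, with sums of 12691 to 13016 units in TAK1 KO and 6084 to 6677 units in WT; Itgam and Cd5l lay below 100 units throughout. The macrophage gene Cd163, which is not on that list, fell as given above. Of 12 stellate cell and myofibroblast markers 8 rose and 0 fell. Their sums were 11092 to 14013 units in TAK1 KO and 4722 to 5185 units in WT, and Lrat, Rgs5 and Hand2 lay below 100 units throughout. Of the 10 macrophage markers 8, and of the 12 stellate markers 9, lay above 100 units on at least 2 arrays. Among all genes that met this limit 36.7% were called, higher or lower. Of 11 hepatocyte markers 3 fell and 0 rose (median log2 difference 0.00). The 3 were Serpina1c, G6pc and Otc, with log2 differences of -0.78, -0.99 and -1.18. The sum of the hepatocyte markers was 176565 to 181277 units in TAK1 KO and 171604 to 175697 units in WT. Most of it was Apoa1, Ttr and Trf, which were not called, so the sum says little about the other markers. Their means were 42719.8, 37478.4 and 50287.6 units in TAK1 KO and 35450.6, 30161.2 and 40992.6 units in WT. The part of these markers in the values of Car3 and Car13 was not tested. In whole liver, fewer cells of a type and less RNA per cell cannot be told apart.

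**Figure D4:**
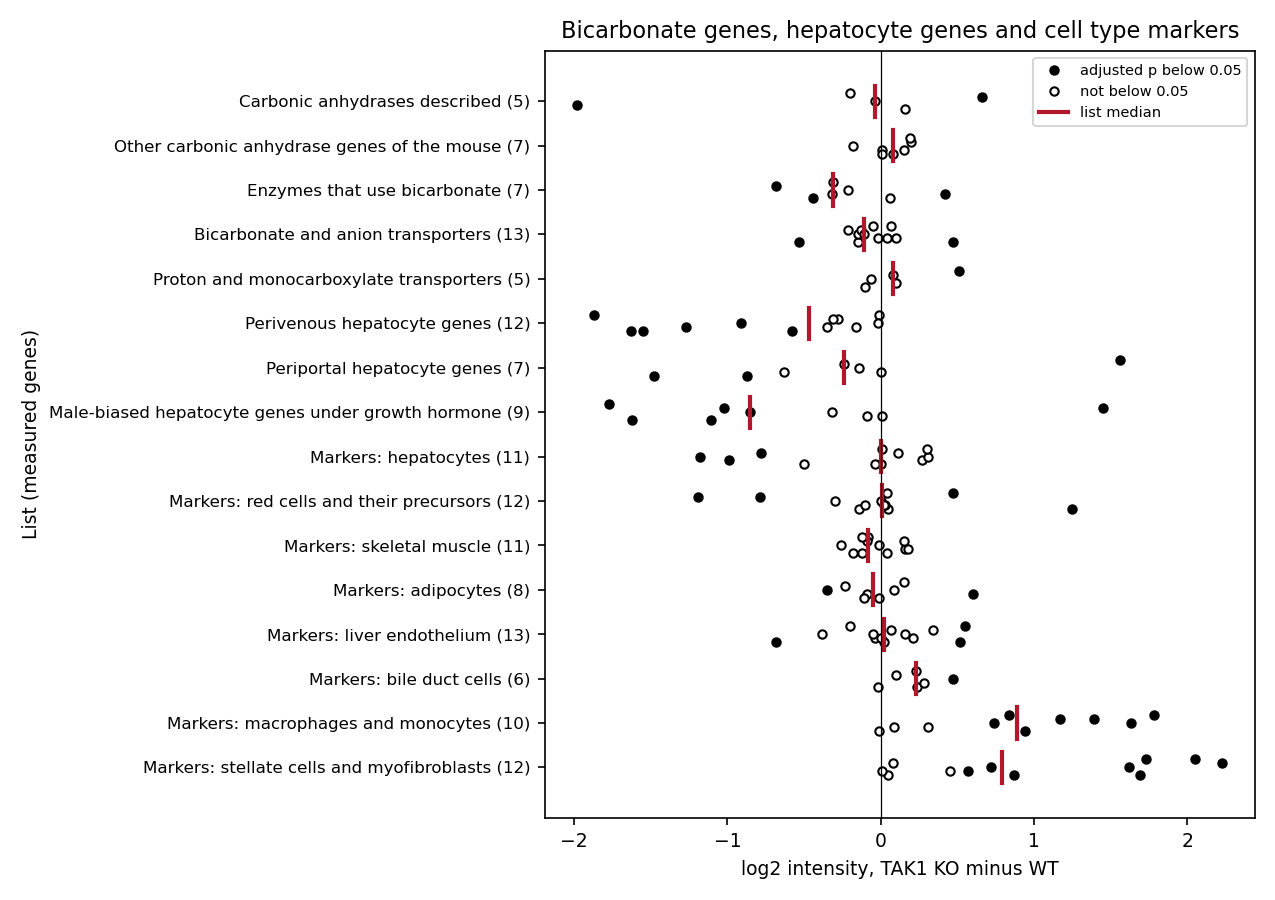
Log2 difference, TAK1 KO minus WT, of each measured gene (points, filled where limma's adjusted p was below 0.05) in lists of carbonic anhydrases, bicarbonate genes, hepatocyte genes and cell type markers; the red bar is the list median. Perivenous genes have 6 filled points below 0 and macrophage and stellate markers 7 and 8 above it. Over all genes 18.2% were called, and 36.7% of those above 100 units on at least 2 arrays. The muscle markers show no filled point, but 10 of 11 lay below 100 units on every array.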

How the data were processed

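Illumina arrays of 4 whole-liver samples, 2 TAK1 KO and 2 WT, were analysed, and groups and replicate numbers were taken from the sample titles. The authors deposited linear intensity values already normalized between arrays, by a method not given in the sources used here; cRNA was made with an Ambion kit, per the labels' protocols. The 4 columns of another table, not yet normalized, could not be matched to sample labels and were left out.

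Probes were named by the platform annotation, updated to the GRCm38.p6 RefSeq table: 23978 probes had 1 gene, 0 had several and 1719 none here. Background was corrected with limma's normexp (offset 50), with no further normalization, and log2 values were compared across all 16593 genes with lmFit and eBayes (limma 3.58.1 under R 4.3.3; 2 residual and 6.85 prior degrees of freedom, two-sided tests); a fit over all probes served for other probes. The procedure was tested on simulated data. Log2 differences understate the change of dim genes. Where 1 group lay at or below 100 units on both arrays, a fold is a lower bound: the brighter group's mean log2 value against that of the dimmer one, where no array counts for less than its dimmest probe above 100 units.

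The members and lists were chosen with earlier results of these data known. Named were all members, the other family genes, up to 4 called genes with the largest change in each list (not all are given), and the 5 genes most like Car3; other genes were named after their values were seen. Alternatives covered background, normalization, probe choice, prior, array weights, replicate block, a filter on dim genes and each array left out. No batch is named in the labels.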

Additional observations from a re-analysis of the deposited data

How the results depend on the processing

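Car3 stayed lower in TAK1 KO and below the threshold under all 12 alternatives (adjusted p at most 0.0021), and Car14 and Car2 were called under 0 of 12. Leaving out 1 array at a time gave log2 differences of -2.16 to -1.80 for Car3, 0.47 to 0.86 for Car13, -0.35 to -0.04 for Car14, -0.09 to 0.40 for Car2, -0.10 to 0.01 for Car4, -0.05 to 0.07 for Car6 and -0.10 to 0.13 for Car12. The sign turned for Car2 without WT replicate 2 (-0.09), for Car4 without TAK1 KO replicate 1 (0.01), for Car6 without TAK1 KO replicate 1 (to just below 0) or WT replicate 1 (-0.05), and for Car12 without TAK1 KO replicate 2 (-0.08) or WT replicate 1 (-0.10); none of these was called. Car13 was not called with WT replicate 1 left out (0.72, adjusted p = 0.051) or WT replicate 2 (0.61, adjusted p = 0.0873), so the count of carbonic anhydrases called lay between 1 and 2. It was 1 in the fit limited to genes above 100 units, in which Car13 and Car4 were not tested. Genes called over the whole array numbered 3022, and 1800 to 3304 with 1 array left out (1827 without WT replicate 1, 1800 without WT replicate 2); such a fit leaves 1 array in a group, which is assumed to vary like the other group. The titles give both groups the same replicate numbers, but samples of 1 number did not deviate together across probes (correlation 0.059, and with 2 pairs this is only a hint). With a replicate block 3067 genes were called, Car3 and Car13 among them (adjusted p = 7.44e-05 and 0.00945). Of 360 counts of list genes under an alternative, 332 lay within 1.5 times the reported count. Counts of 0 that stayed 0 are among these 332, so the share overstates how stable the other counts were. Of 43 genes called and named by rule, as neighbours or as most like Car3, 29 were called under every setting run. Signals near the background limit the other genes: 6 of the 7 other family members and Car4 could not be read above 100 units.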
